A study of Homo sapiens with 8 samples.

Results

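Crosslink positions that both dyskerin and GAR1 shared, and that no IgG control contained, were collected from iCLIP libraries of U2OS cells, a human osteosarcoma line. In iCLIP, proteins are joined by ultraviolet light to the RNAs they touch and precipitated, and cDNAs made from the RNA often end where the protein was attached, which places each contact on a single nucleotide. Cells were exposed to 1500 J/m2 of 254 nm light, nuclei were fractionated, and complexes were precipitated with a mouse antibody against dyskerin, a rabbit antibody against GAR1, or mouse IgG. No drug, depletion or transgene was used, and the 8 libraries formed 4 groups of 2 replicates, namely dyskerin, GAR1, the IgG of the dyskerin set and the IgG of the GAR1 set. The study describes its iCLIP replicates as independent experiments, the labels name no separate cultures, and the spread behind each p-value is that between these libraries. A position was selected on the calls themselves: it had to be listed as significant, at the same chromosome, nucleotide and strand, in both dyskerin and both GAR1 libraries and in none of the 4 IgG libraries. Of 1623913 positions called in at least 1 library, 13157 were called in all 4 antibody libraries, and 2964 of these were absent from every IgG library. Mouse IgG was not matched in species to the rabbit GAR1 antibody, which limits the meaning of absence from IgG for GAR1.

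Dyskerin converts uridine to pseudouridine as the enzyme of the H/ACA particle, and GAR1 is a further core protein of it. The particle assembles on H/ACA snoRNAs, short nucleolar RNAs of paired hairpins with a hinge (H box) between them and an ACA box near the 3′ end, and each hairpin can hold a pocket that pairs with the RNA to be modified. scaRNAs are related guides of Cajal bodies, which direct modification of spliceosomal snRNAs, and C/D snoRNAs guide 2′-O-methylation with other core proteins. Most of these RNAs are cut from introns of host genes.

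The sequences of 6 guide RNAs are shown because they held the highest levels or many of the shared positions. They were read from hg38 in DNA letters, and capitals mark the nucleotides called in all 4 antibody libraries and in no IgG library.
SNORA44, chr1:28580381-28580512, minus strand: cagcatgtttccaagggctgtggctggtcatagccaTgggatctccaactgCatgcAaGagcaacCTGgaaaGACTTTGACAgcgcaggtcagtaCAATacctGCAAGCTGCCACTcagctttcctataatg
SNORA64, chr16:1962973-1963106, minus strand: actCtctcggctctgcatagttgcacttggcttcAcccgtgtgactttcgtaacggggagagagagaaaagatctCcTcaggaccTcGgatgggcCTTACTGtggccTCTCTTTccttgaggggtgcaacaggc
SNORA66, chr1:92840719-92840851, plus strand: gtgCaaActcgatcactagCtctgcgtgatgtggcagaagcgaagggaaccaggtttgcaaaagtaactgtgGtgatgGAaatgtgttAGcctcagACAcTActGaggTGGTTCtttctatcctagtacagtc
SNORA57, chr11:62665422-62665570, plus strand: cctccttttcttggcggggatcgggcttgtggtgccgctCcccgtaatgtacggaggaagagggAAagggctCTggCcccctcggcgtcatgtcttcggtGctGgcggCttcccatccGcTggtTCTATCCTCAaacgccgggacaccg
SNORD28, chr11:62854621-62854695, minus strand: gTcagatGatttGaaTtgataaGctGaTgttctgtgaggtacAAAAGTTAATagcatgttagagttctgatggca
SNORD33, chr19:49490615-49490699, plus strand: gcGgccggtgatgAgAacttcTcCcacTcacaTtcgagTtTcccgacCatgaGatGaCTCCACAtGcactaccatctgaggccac
SNORA44 held 34 such positions, SNORA57 21, SNORA64, SNORA66 and SNORD33 20 each, and SNORD28 17. In SNORA64 and SNORA66 the ACA box started at nucleotide 129 and 128 from the 5′ end, and in SNORA57 at nucleotide 144. In the 4 H/ACA snoRNAs shown more capitals lay past the midpoint than before it, often in short stretches. In all, the 2964 positions fell into 1465 runs in which neighbours lay at most 5 nt apart, 848 of them a single position. The longest run had 17 positions.

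The shared positions carried a small portion of each library. Peak cDNAs, the sum over all significant positions of a library, numbered 1693951 and 1875459 for dyskerin, 585454 and 1976518 for GAR1, 146514 and 8183 for the IgG of the dyskerin set, and 295255 and 10701 for the IgG of the GAR1 set. The shared positions held 0.919% ± 0.0503 (SD, n = 2) of these cDNAs for dyskerin and 2.10% ± 0.0449 for GAR1. By library the share was 0.883% (Wilson 95% confidence interval 0.869 to 0.897) and 0.954% (0.940 to 0.968) for dyskerin, and 2.14% (2.10 to 2.17) and 2.07% (2.05 to 2.09) for GAR1. These intervals cover counting error only. In contrast, all 13157 positions called in the 4 antibody libraries held 22.1% and 25.6% of the dyskerin cDNAs and 95.7% and 93.3% of the GAR1 cDNAs. Most of the signal common to both proteins therefore lay at nucleotides that an IgG library also listed.

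Counts at the shared positions were low. The median was 3 cDNAs in both dyskerin libraries, 2 in the first GAR1 library and 8 in the second, against 10, 12, 11 and 49 at positions also called in IgG. Just inside the rule, 39 positions had a single cDNA in each of the 4 libraries and 1668 had a single cDNA in at least 1 of them. At the other end, 103 had at least 10 cDNAs in each. Just outside the rule, 7165 positions were called in 3 of the 4 antibody libraries and in no IgG library, and 4574 of these lacked only the first GAR1 library. A further 4862 were called in all 4 antibody libraries and in exactly 1 IgG library, which was the first IgG library of the GAR1 set at 4246 of them. In 1664 of the 4862 the IgG call rested on a single cDNA. When the rule was applied to 7 libraries, 7538 positions met it with the first GAR1 library left out, and 7210 with that IgG library left out. Without that IgG library the share of cDNAs was 2.98% for dyskerin and 11.9% for GAR1.

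Absence from IgG followed the level of a position in every RNA class examined. Levels are given as CPM, the count per 1000000 peak cDNAs of its library, averaged over each protein and then over both proteins. Of the positions called in all 4 antibody libraries, 74.0% were absent from IgG below 2 CPM, 47.1% between 2 and 5, 23.3% between 5 and 10, 8.62% between 10 and 20, 3.15% between 20 and 50, and 0.550% above 50. For H/ACA snoRNAs the first and last of these shares were 70.8% and 0.696%, and for C/D snoRNAs 77.6% and 0.308%. Only 13 shared positions exceeded 50 CPM. Scaled to the total of the first IgG library of the GAR1 set, the mean GAR1 level of a shared position corresponded to a median of 1.28 cDNAs, and to under 3 cDNAs at 2470 positions. It corresponded to at least 10 cDNAs at 59 positions. A position that was not called in IgG need not have been without IgG signal, since the files used here list only significant positions. Whether a level reflects the amount of an RNA or its contact with the protein cannot be told apart here, as no measure of RNA amount was used.

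**Figure D1:**
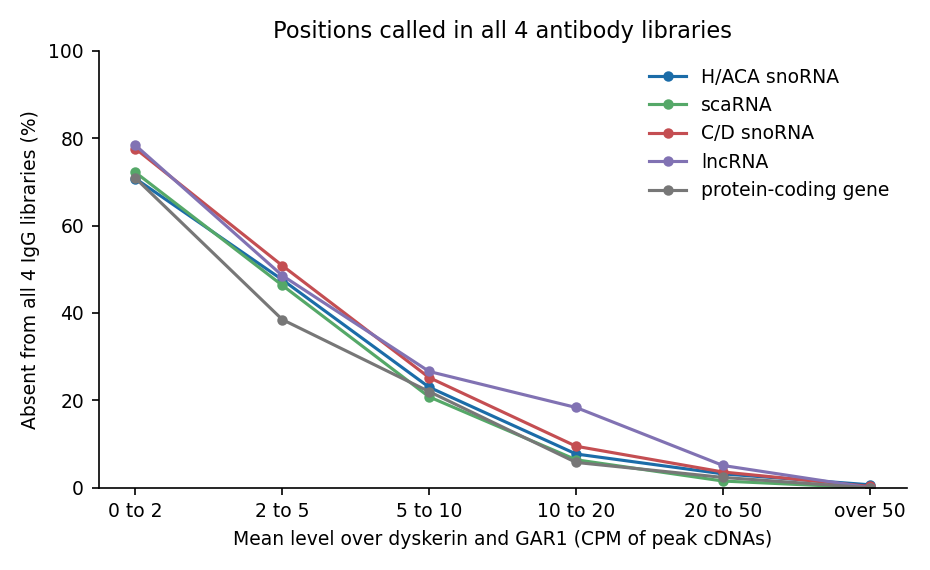
The horizontal axis is the mean level of a position (CPM of peak cDNAs, in 6 ranges) and the vertical axis the percentage of positions called in all 4 antibody libraries that no IgG library listed. The lines are 5 RNA classes, and each falls from over 70% below 2 CPM to under 1% above 50 CPM. snRNAs, not plotted, fell from 63.2% of 19 positions to 0% of 27.

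IgG positions lay close by. An IgG position on the same strand was within 1 nt of 49.5% of the shared positions, within 5 nt of 74.9% and within 50 nt of 94.4%, and 61.5% lay inside an IgG cluster. The first IgG library of the GAR1 set had a position within 5 nt of 70.8%, the first of the dyskerin set of 39.0%, and the second libraries of the 2 sets of 15.1% and 14.5%. Far from any IgG position, by more than 1000 nt, were 91 shared positions. Of these, 46 lay in protein-coding genes and 17 in lncRNAs. Of the 446 genes with a shared position, 45 had no IgG position anywhere in the gene, and they held 64 shared positions.

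Guide RNAs made up most of the shared positions. H/ACA snoRNAs held 1131 positions in 117 RNAs (38.2%), C/D snoRNAs 1033 in 154 RNAs (34.9%), and scaRNAs 296 in 28 RNAs (9.99%). Protein-coding genes held 202 positions in 91 genes (6.82%) and lncRNAs 197 in 22 genes (6.65%). The rest were snRNAs with 54, mitochondrial RNAs with 19, other short RNAs with 18, snoRNAs without a family name with 9, pseudogenes with 3 and 5S rRNA with 2. The lncRNA class included 71 positions that lay in RefSeq 45S pre-rRNA genes, 56 of them in 28S rRNA. At positions also called in IgG, H/ACA snoRNAs stood at 54.3% and C/D snoRNAs at 22.5%. Positions are not replicates, so these shares carry no test, and since levels differ between the classes they also follow the level. In cDNAs, H/ACA snoRNAs held 38.9% ± 3.56 (SD, n = 2) of the dyskerin signal at shared positions and 52.2% ± 3.21 of the GAR1 signal, and C/D snoRNAs 28.5% ± 3.97 and 29.3% ± 2.72. lncRNAs held 16.9% ± 0.193 of the dyskerin signal and 3.63% ± 0.647 of the GAR1 signal. Class shares depended on the first GAR1 library: without it, protein-coding genes rose to 40.6% of positions, and H/ACA and C/D snoRNAs were at 21.1% and 19.2%. Without the second GAR1 library protein-coding genes were at 16.9%. Without the first IgG library of the GAR1 set, protein-coding genes were at 4.42% and lncRNAs at 3.81%.

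**Figure D2:**
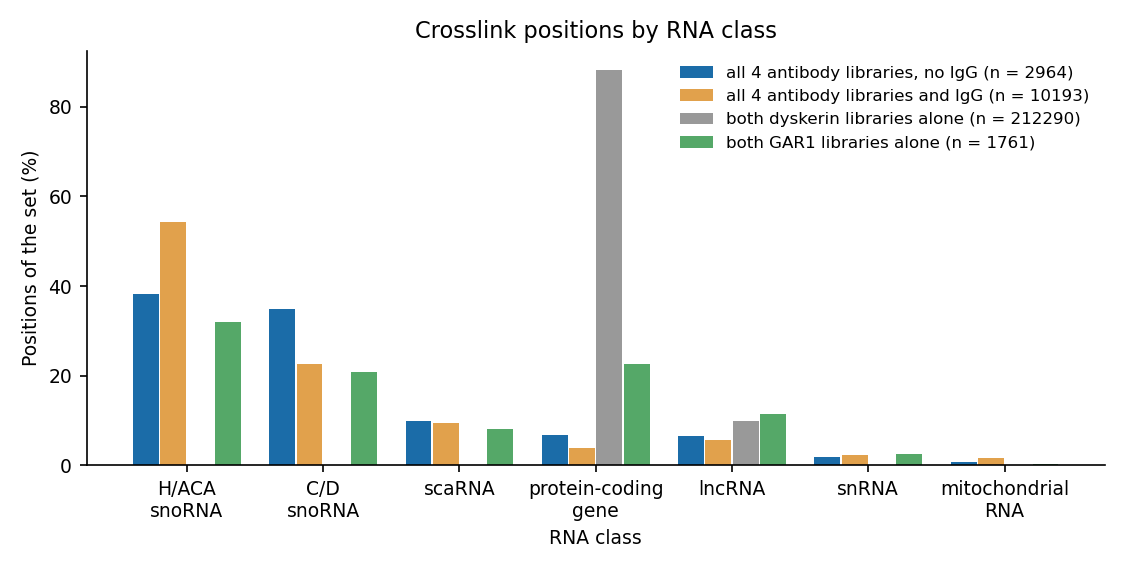
The vertical axis gives the percentage of positions in each RNA class (horizontal axis) for the shared positions absent from IgG and for 3 comparison sets. Protein-coding genes hold 88.1% of positions called in both dyskerin libraries alone and 6.82% of the shared positions.

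Among H/ACA snoRNAs, SNORA44, hosted by the lncRNA SNHG12, led with 34 shared positions. SNORA57 (host CSKMT) and SNORA17A (SNHG7) held 21. SNORA64 (RPS2) and SNORA66 (RPL5) held 20, SNORA63E (LINC00888) 19, and SNORA80E (KHDC4), SNORA84 (IARS1) and SNORA71C (SNHG17) 18. For SNORA44 the summed level was 241 and 406 CPM for dyskerin and 984 and 1120 for GAR1, and 20 of its 34 positions were higher in GAR1 by edgeR with total scaling and none with TMM. Over all 13157 positions tested, 59.1% were higher in GAR1 with total scaling and 6.64% with TMM, which sets the bulk of the tested positions equal. Over the shared positions alone these were 33.6% and 0.169%. With total scaling the share in SNORA44 was thus near that of all positions and above that of the shared positions. Those of SNORA64 summed to 253 and 192 CPM for dyskerin and 401 and 520 for GAR1. Those of SNORA66 summed to 146 and 148 CPM for dyskerin and 420 and 373 for GAR1. With total scaling both GAR1 libraries exceeded both dyskerin libraries in each of these 9 RNAs, and this direction depends on the scaling. All 9 also held positions called in IgG, from 17 in SNORA71C to 76 in SNORA66.

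The highest of all shared positions lay in SNORA44, at chr1:28580407, nucleotide 106 of 132. It had 149 and 317 cDNAs for dyskerin (87.96 and 169 CPM) and 175 and 788 cDNAs for GAR1 (299 and 399 CPM), and the nearest IgG position was 51 nt away. Dyskerin and GAR1 did not overlap there. The log2 of dyskerin over GAR1 was -1.44 (edgeR quasi-likelihood test with library sizes fixed to total peak cDNAs, adjusted p = 0.0196), but 0.43 with TMM scaling (adjusted p = 0.640). In SNORA44 the IgG libraries had 228, 32, 3302 and 79 cDNAs, all before the midpoint, and their last called nucleotide was 55. The last called nucleotide was 116 in each antibody library, where 18.6% and 28% of dyskerin cDNAs and 9.78% and 13.6% of GAR1 cDNAs on this RNA lay past the midpoint.

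**Figure D3:**
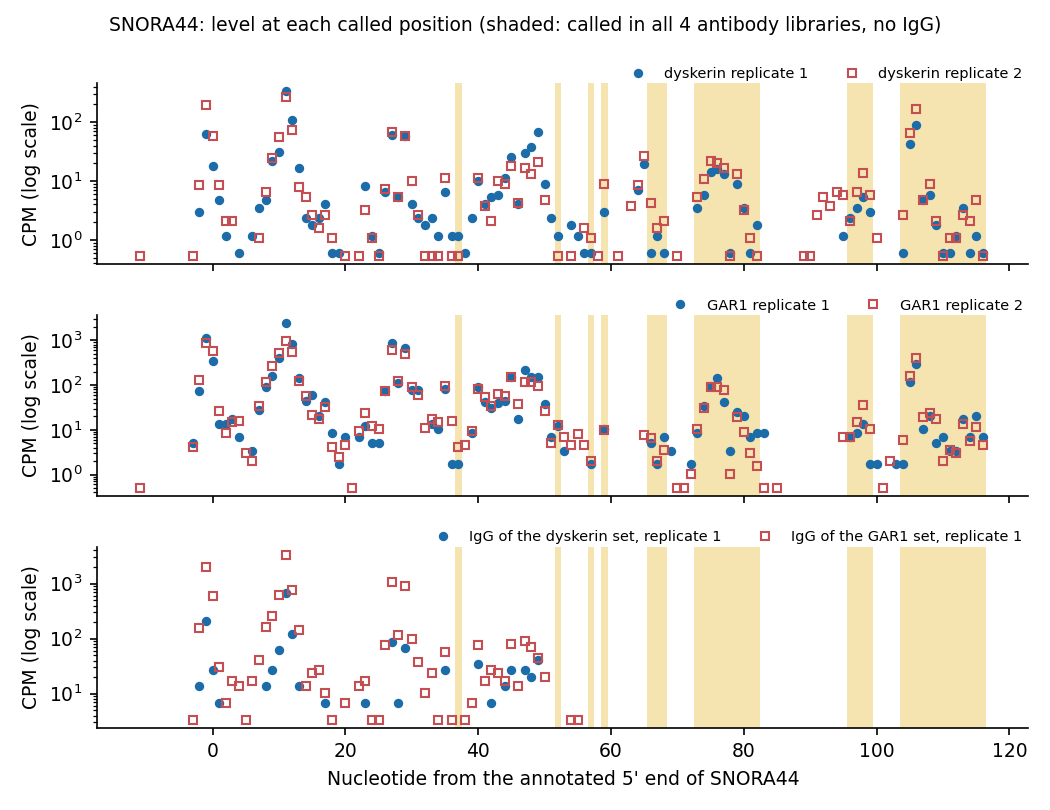
Level (CPM, log axis) at each called position of SNORA44 against the nucleotide from the annotated 5′ end, for both dyskerin libraries, both GAR1 libraries and the first IgG library of each set, with shaded bands at the 34 positions called in all 4 antibody libraries and no IgG library. IgG positions end at nucleotide 55, whereas positions in all 4 antibody libraries reach nucleotide 116.

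Next came SNORA63B, at nucleotide 35 of 123, with 59.6 and 36.3 CPM for dyskerin and 347 and 227 for GAR1. Its log2 of dyskerin over GAR1 was -2.58 (edgeR quasi-likelihood test, adjusted p = 0.000506), and -0.71 with TMM (adjusted p = 0.376). The other RNAs with the highest shared positions were, with mean CPM of dyskerin and GAR1 over 2 libraries, SNORA64 (73.2 and 141), SNORA50C (67.6 and 110), SNORA81 (34.6 and 82.1), SNORA66 (33.0 and 78.3), SNORD28 (27.2 and 76.5), SNORA16A (23.7 and 79.2), SNORA61 (18.2 and 103) and SNORA57 (31.7 and 53.8). SNORD28 was the only C/D snoRNA among the 10 RNAs, at 1 position per gene. SNORA44, SNORA16A and SNORA61 share the host SNHG12, and SNORA63B and SNORA81 share EIF4A2, the gene of a translation initiation helicase. IgG positions lay 1 to 27 nt away from the 9 positions after SNORA44. IgG cDNAs past the midpoint were present in SNORA57, SNORA64, SNORA66, SNORA81, SNORA16A and SNORA61, and absent from SNORA44, SNORA63B, SNORD28 and SNORA50C. In SNORA50C the antibody libraries had none there either. In SNORA57 the first IgG library of the GAR1 set had 16.3% of its 3106 cDNAs past the midpoint, against 14.3% and 17.7% in GAR1.

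Along the guide RNAs the shared positions lay farther 3′ than the positions also called in IgG. Past the midpoint were 62% of the 1131 shared positions of H/ACA snoRNAs, against 29.2% of the 5531 positions also called in IgG. For scaRNAs these were 56.8% and 32.4%, and for C/D snoRNAs 36.8% and 10.9%. Within single RNAs, the median shared position was nearer to the 3′ end than the median position also called in IgG in 107 of 114 H/ACA snoRNAs, 22 of 26 scaRNAs and 123 of 141 C/D snoRNAs. The shift was present in every range of level that held both kinds of position. In H/ACA snoRNAs between 2 and 5 CPM the shares past the midpoint were 57.5% and 32.4%, and between 10 and 20 CPM 71.9% and 31.6%. In C/D snoRNAs between 10 and 20 CPM they were 47.1% and 11.1%. As absence from IgG chose these positions, the shift describes them and carries no test.

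A larger share of the shared positions than of positions also called in IgG lay near the ACA box. The letters ACA were found within the last 12 nt of 117 of the 127 H/ACA snoRNAs with a position in all 4 antibody libraries. The window from 11 to 17 nt upstream of this box, selected on these values, held 128 of 1027 shared positions (12.5%), in 46 RNAs, against 44 of 5063 positions also called in IgG (0.869%). The adjoining stretch from 18 to 30 nt held 201 shared positions (19.6%), in 73 RNAs, and 290 of those also called in IgG (5.73%). The most frequent distance within 60 nt of the box was 16 nt for shared positions and 48 nt for positions also called in IgG. Distances of 14, 15 and 29 nt held 22 shared positions each, against 26 at 16 nt, so the rise was broad. Between 2 and 20 CPM the window from 11 to 17 nt held 11.9% and 1.27%. Of all positions called in the 4 antibody libraries inside the window, 74.4% were absent from IgG, against 15.2% elsewhere on these RNAs. SNORA57 and SNORA21 had 7 shared positions in the window, SNORA10 had 6 and SNORA28 had 5. The pocket of the 3′ hairpin lies in this part of the RNA. However, the same distance upstream of the H box, searched as ANANNA with a single match in the middle of the RNA, held 6.23% of shared positions and 9.54% of positions also called in IgG. Upstream of box D of C/D snoRNAs, searched as CTGA in the last 15 nt, the window held 8.94% and 2.13%, and the most frequent distance was 19 and 44 nt. Of positions called in all 4 antibody libraries in the box D window, 65.4% were absent from IgG, against 29.5% elsewhere. For the H box these were 12.2% and 18.1%. As absence from IgG chose the shared positions, these shares describe them and carry no test. No more than 2 H/ACA and 5 C/D shared positions lay under 10 nt upstream of their box. Reads shorter than 10 nt after trimming were not kept, and the part of read length in these distances was not tested.

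**Figure D4:**
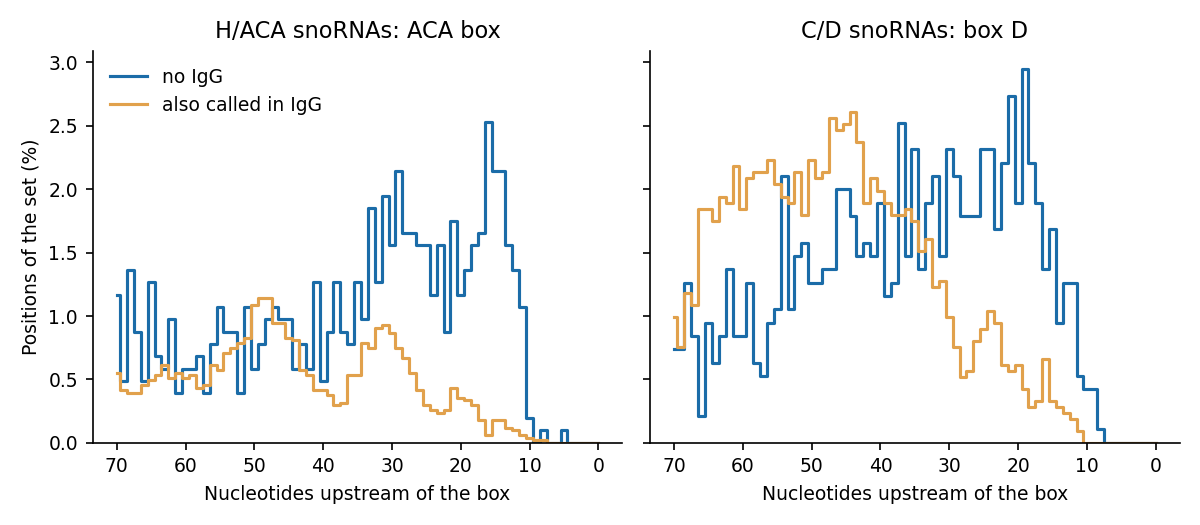
Percentage of positions (vertical axis) at each distance upstream of the ACA box of H/ACA snoRNAs and of box D of C/D snoRNAs (horizontal axes, nucleotides), for shared positions absent from IgG and positions also called in IgG. Shared positions rise within 40 nt of either box, with the most frequent distance at 16 nt for the ACA box and 19 nt for box D.

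Of the scaRNAs, SCARNA10 (host NCAPD2, a condensin subunit) held 37 shared positions, SCARNA12 (PHB2) 25, SCARNA13 (SNHG10) 23, SCARNA7 (KPNA4) 21, and SCARNA2 and SCARNA5 17 each. All scaRNAs were counted together and were not split by H/ACA or C/D type. SCARNA10 summed to 95 and 115 CPM for dyskerin and 282 and 283 for GAR1. With total scaling 14 of its 37 positions were higher in GAR1 by edgeR, against 59.1% of all positions tested and 33.6% of the shared positions. With TMM 1 was higher in GAR1 and 2 in dyskerin. SCARNA12 summed to 59.0 and 92.8 CPM for dyskerin and 126 and 129 for GAR1. SCARNA2 summed to 46.0 and 126 CPM for dyskerin and 104 and 135 for GAR1. The proteins overlapped in SCARNA2 and not in the other 2. In SCARNA10 the IgG calls ran to nucleotides 288 to 303 and the antibody calls to nucleotide 313 of 330, and the IgG libraries had 37.9%, 41.3%, 40.9% and 30.1% of their cDNAs past the midpoint against 36.8% to 43.1% in the antibody libraries. SCARNA10 was thus unlike SNORA44 in this respect.

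C/D snoRNAs, whose known core proteins are not those of the H/ACA particle, supplied more than 1 in 3 shared positions. SNORD33 (host RPL13A) held 20, SNORD118 19, SNORD88A 18 and SNORD28 (SNHG1) 17. SNORD33 summed to 45.5 and 39.99 CPM for dyskerin and 214 and 112 for GAR1. SNORD118 (U8), which acts in maturation of large subunit rRNA, summed to 44.3 and 41.6 CPM for dyskerin and 145 and 112 for GAR1. SNORD28 summed to 79.1 and 106 CPM for dyskerin and 272 and 274 for GAR1. With total scaling the libraries of GAR1 were all above those of dyskerin in these 3 RNAs, as at 1801 of the 2964 shared positions taken singly. On SNORD28 the 12 positions also called in IgG all lay at or before nucleotide 21, and of the IgG libraries only the first of the GAR1 set had any cDNAs there, 50 in all. By host, SNHG1 carried 56 shared positions in 7 C/D snoRNAs, GAS5 55 in 10, RPL4 46 in 4 and RPL13A 45 in 4. SNHG12 and SNHG17 carried 61 each, and TAF1D 58 in both families.

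snoRNAs that act in rRNA processing were among them, including U14 (SNORD14), which also guides methylation. Of the 9 listed C/D processing snoRNAs 8 held a shared position, 51 in all, with SNORD118 at 19, SNORD14B at 14, and SNORD14A and SNORD22 at 7. The list left out SNORD14C, SNORD14D and SNORD14E, hosted by HSPA8, which held 10, 12 and 13. The U3 genes SNORD3A, SNORD3B-1 and SNORD3C held 1 each, and so did SNORD13. The U3 and SNORD13 positions had downstream sequence found at several places in the genome, so their assignment to a copy is uncertain. The H/ACA processing snoRNAs SNORA73A and SNORA73B held 9 and 8. SNORA73A summed to 8.26 and 16 CPM for dyskerin and 70.0 and 82.5 for GAR1, and SNORA73B to 12.4 and 9.60 and to 56.4 and 71.3. These few positions stood beside 139 and 155 also called in IgG.

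MALAT1, a lncRNA of nuclear speckles, held more shared positions than any other gene, 62. They summed to 1099.8 and 896 CPM for dyskerin and 241 and 147 for GAR1, so dyskerin exceeded GAR1 without overlap. The median log2 of dyskerin over GAR1 was 2.17, and 43 of the 62 positions were higher in dyskerin by edgeR with total scaling and 61 with TMM, against 5.34% and 10.8% of all positions tested. They lay among 434 positions of MALAT1 called in all 4 antibody libraries and in IgG. At those positions the IgG libraries of the dyskerin set had 10871 and 536 cDNAs, out of totals of 146514 and 8183. Those of the GAR1 set had 951 and 125, out of totals of 295255 and 10701. Relative to their totals, the IgG of the 2 sets thus differed in the same direction as the proteins. Whether the excess of dyskerin on MALAT1 goes beyond this difference was not tested. NEAT1, the lncRNA of paraspeckles, held 25, with 54.3 and 24.5 CPM for dyskerin and 78.6 and 34.9 for GAR1. The proteins overlapped in NEAT1. The position of MALAT1 with the highest log2 is shown with 20 nt on either side, the called base in capitals, because the ratio between the proteins was among the most extreme there.
MALAT1, chr11:65500258-65500298, plus strand: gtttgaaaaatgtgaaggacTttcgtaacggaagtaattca
This base had 64 and 74 cDNAs for dyskerin and 2 and 4 for GAR1, or 37.8 and 39.5 CPM against 3.42 and 2.02. The log2 of dyskerin over GAR1 was 3.94 (edgeR, adjusted p = 0.000268) and 5.83 with TMM (adjusted p = 6.2e-07). An IgG position lay 1 nt away.

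The unnamed GENCODE lncRNAs ENSG00000280441 and ENSG00000278996 held 42 and 29 shared positions. Both overlap RefSeq 45S pre-rRNA genes on chromosome 21, on the plus strand, and 56 of the 71 positions fell in 28S rRNA, none in 18S or 5.8S rRNA, and 15 outside the mature rRNAs. For 62 of the 71 the 30 nt downstream occur at more than 1 place in the genome, and reads with up to 50 alignments were kept, so the copy is uncertain. The first of them summed to 112 and 157 CPM for dyskerin and 159 and 152 for GAR1. The second summed to 130 and 402 CPM for dyskerin and 147 and 104 for GAR1. In both genes the libraries of the proteins overlapped, and in the second the dyskerin libraries lay farther apart from each other than the GAR1 libraries did. Over all shared positions, 142 had a downstream sequence at more than 1 place, 4.79% against 6.77% at positions also called in IgG, and without these lncRNAs made up 4.78% of the rest.

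In protein-coding genes, 134 of the 202 shared positions were intronic, 39 in coding sequence, 22 in other exons, 6 in 5′ UTRs and 1 in a 3′ UTR. Positions called in both dyskerin libraries alone lay in coding sequence in 51.8% and in introns in 42.6%, against 19.3% and 66.3% of the shared positions. Intronic positions were a median of 2598 nt from the nearest exon, 24 of the 202 lay within 200 nt of an annotated guide RNA, and 81 had at most 4 cDNAs in every library. NTM, a neuronal cell adhesion gene, held 34, all intronic. They summed to 59.0 and 36.3 CPM for dyskerin and 75.2 and 33.4 for GAR1, which overlapped, and the gene had 1123 IgG positions. BUB1, a kinase of the mitotic spindle checkpoint, held 11 in exons outside annotated coding sequence and UTRs, with 10.6 and 13.9 CPM for dyskerin and 42.7 and 54.1 for GAR1. CWF19L1 held 10 in introns, as near as 1 nt to SNORA12, with 17.1 and 25.1 CPM for dyskerin and 49.5 and 63.2 for GAR1. CHD3, a chromatin remodeller, held 5 in introns, as near as 11 nt to SCARNA21, and RCC1, the exchange factor of Ran, held 4 as near as 13 nt to SNORA73B. EEF1D, a subunit of translation elongation factor 1, held 7, RUNX1, a transcription factor of blood cells, 6, ASAP1 5 and SRGAP2C 4. In SRGAP2C, a recent duplicate gene, 3 of the 4 had downstream sequence at other places.

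Coding positions were few in each gene, 39 in 25 genes. With total scaling their median log2 of dyskerin over GAR1 was 0.82, against -0.74 for intronic positions. At positions also called in IgG these medians were 2.09 and -1.27, so the contrast was not particular to the shared positions. HSP90AB1, a cytosolic chaperone, held 5, with 14.8 and 18.7 CPM for dyskerin and 8.54 and 4.55 for GAR1, without overlap. RSRC2 held the shared position of highest fitted edgeR log2, slightly above that of MALAT1, whose log2 of mean CPM was higher at 3.83 against 3.63. The 41 nt around the RSRC2 position, on its coding strand, are shown with the called base in capitals.
RSRC2, chr12:122522173-122522213, minus strand: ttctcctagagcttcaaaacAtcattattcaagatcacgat
It had 24 and 25 cDNAs for dyskerin and 1 and 1 for GAR1, or 14.2 and 13.3 CPM against 1.71 and 0.51. The log2 of dyskerin over GAR1 was 3.95 (edgeR, adjusted p = 0.00177) and 5.78 with TMM (adjusted p = 3.4e-05). Coding positions of ANP32B, a histone chaperone, and MCM3, a subunit of the replicative helicase, had log2 values of 3.23 and 3.06 (edgeR, adjusted p = 0.00699 and 0.00698), also with 1 cDNA in each GAR1 library. Their IgG neighbours were 1 or 2 nt away.

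Few genes of other lists held shared positions. None of the 6 mRNAs of the H/ACA core proteins did. Of 9 C/D core and nucleolar protein genes, DDX21, a nucleolar helicase, held 1, and of 14 translation factor genes EEF1D alone held any. Of 18 SR, speckle and hnRNP protein genes, SRRM2 and SRSF5 held 1 each. Of 17 cytoskeleton and extracellular matrix genes, FLNA (filamin A) held 2 and ACTB (beta-actin) 1. The 2 in FLNA summed to 8.86 and 15.5 CPM for dyskerin and 5.12 and 2.02 for GAR1. Of 87 cytosolic ribosomal protein genes, RPL12 and RPS12 held 1 each, both intronic and within 15 nt of a snoRNA. Of 17 snoRNA host genes, SNHG3 and TAF1D held 2 each and GAS5 1, outside their snoRNAs. The list left out the lncRNA SNHG22, which held 14, as near as 6 nt to SCARNA17. Of 13 structured short non-coding RNAs, RMRP, the RNA of RNase MRP, and RN7SK, which holds the elongation factor P-TEFb, held 5 each. RN7SK summed to 22.4 and 12.3 CPM for dyskerin and 12 and 4.05 for GAR1, both GAR1 libraries below both dyskerin libraries, and 4 of its positions had downstream sequence at other places. RMRP summed to 11.2 and 10.7 CPM for dyskerin and 17.1 and 15.7 for GAR1. Of the remaining non-coding RNAs, MIR4449 and MT-RNR1, the small mitochondrial rRNA, held 7 each, and RNU4-2, the U4 snRNA gene, 6. MT-ND6, a mitochondrial gene for a subunit of respiratory complex I, held 7.

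The balance between the proteins was set by the scaling. Scaled to total peak cDNAs, 2573 shared positions had a higher mean in GAR1 and 391 in dyskerin. GAR1 was higher without overlap of the libraries at 1801 shared positions, and dyskerin at 159. The median log2 of dyskerin over GAR1 was -1.35, against -1.88 over all 13157 positions called in the 4 antibody libraries. In the edgeR quasi-likelihood test of all 13157 with this scaling, 7772 were higher in GAR1 (59.1%) and 703 higher in dyskerin (5.34%). Of the shared positions 996 (33.6%) were higher in GAR1 and 76 (2.56%) higher in dyskerin. Both shares were under those of all positions tested, and counts were lower. With TMM 873 of all positions were higher in GAR1 (6.64%) and 1426 in dyskerin (10.8%), and of the shared positions 5 (0.169%) and 294 (9.92%). The fitted median of all positions moved from -1.87 to 0.01, and that of the shared positions from -1.26 to 0.61. The shared positions stood 0.61 and 0.60 above all positions on the log2 scale in the 2 scalings. At like levels the gap differed, since the median was -1.43 for shared positions and -1.52 for those also called in IgG between 2 and 5 CPM, and -1.46 and -2.04 between 10 and 20 CPM. The fitted median of shared positions was -1.31 and -1.37 without the first and second dyskerin library, and of all positions -1.87 and -1.97. Without the first and second GAR1 library these were -1.20 and -1.24, and -1.93 and -1.59.

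**Figure D5:**
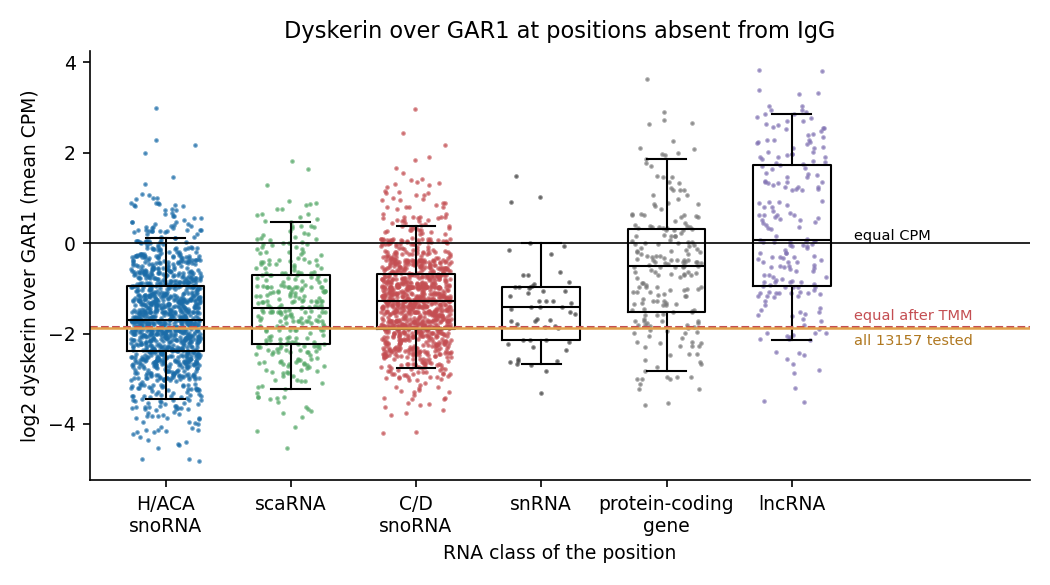
Each point is a shared position, the vertical axis its log2 of dyskerin over GAR1 (means of 2 libraries, CPM), and the horizontal axis its RNA class. Boxes give the median and quartiles with whiskers at the 5th and 95th percentiles, and lines mark equal CPM, equality after TMM and the median of all positions tested. H/ACA snoRNAs have a median of -1.71 and lncRNAs of 0.07.

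By class, the median log2 with total scaling was -1.71 for H/ACA snoRNAs, -1.43 for scaRNAs, -1.28 for C/D snoRNAs, -1.42 for snRNAs, -0.50 for protein-coding genes and 0.07 for lncRNAs. At positions also called in IgG it was -2.57, -1.89, -1.69, -1.47, -0.59 and 2.94. With total scaling H/ACA snoRNAs held 531 of the 996 positions higher in GAR1 and 4 of the 76 higher in dyskerin, among their 1131 positions. lncRNAs held 17 and 48 among their 197, and 43 of the 48 lay in MALAT1. Over all positions tested the shares were 59.1% and 5.34%. With TMM, H/ACA snoRNAs held 4 positions higher in GAR1 and 51 in dyskerin, and lncRNAs 0 and 96, against 6.64% and 10.8% of all. The lncRNA class held 62 positions in MALAT1 and 71 in 45S pre-rRNA genes. Under both scalings 76 positions were higher in dyskerin, 43 of them in MALAT1, 4 in ENSG00000278996, and 2 each in HSP90AB1, HSP90AA1, SMC4 (a condensin subunit) and SNORA80E. These were 2.56% of the shared positions. Over all positions tested, the number called under both scalings was not counted.

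Under both scalings 5 shared positions (0.169%) were higher in GAR1, in SNORA24B, SNORA80E, SNORA63D, SNORA31B and SCARNA10. With TMM 6.64% of all positions tested were higher in GAR1. All 5 lay in guide RNAs, but H/ACA snoRNAs, C/D snoRNAs and scaRNAs made up 38.2%, 34.9% and 9.99% of the shared positions. The lowest edgeR log2 was in SNORA24B (host PARP16), at nucleotide 77 of 131.
SNORA24B, chr15:65285495-65285535, minus strand: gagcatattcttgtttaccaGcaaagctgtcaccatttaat
It had 2 and 2 cDNAs for dyskerin and 13 and 78 for GAR1, or 1.18 and 1.07 CPM against 22.2 and 39.5. The log2 was -4.72 (edgeR, adjusted p = 0.000117) and -2.87 with TMM (adjusted p = 0.0145), and the downstream sequence occurs at 2 places. With total scaling SNORA74D and SNORA69 had log2 values of -4.41 and -4.34 (edgeR, adjusted p = 0.000456 and 0.000485). With TMM their adjusted p was 0.0523 and 0.0571. SNORA80E held positions called in either direction, 2 of its 18 higher in dyskerin and 8 higher in GAR1 with total scaling. With TMM these were 3 and 1. Over all positions tested the shares were 5.34% and 59.1% with total scaling and 10.8% and 6.64% with TMM.

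The base at the shared positions was U in 30.8% (Wilson interval 29.2 to 32.5), G in 24.6%, C in 22.5% and A in 22.1%. U stood at 32.6% where IgG was also called, 37.2% at positions of both dyskerin libraries alone and 27.7% at those of both GAR1 libraries alone. Shared positions of C/D snoRNAs had U in 34.1%, against 29.96% of all nucleotides of these RNAs. For H/ACA snoRNAs these were 28.9% and 28.1%, and for scaRNAs 25.7% and 27.2%. scaRNAs had G in 31.4% of shared positions. In the window upstream of the ACA box U stood at 39.8% of the 128 shared positions and 38.6% of the 44 positions also called in IgG, and shared positions in the same window of the H box and box D had U in 40.9% and 41.2%.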

How the data were processed

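The deposited files hold, for each of the 8 iCLIP libraries, significant crosslink positions and clusters of them, and the values in the deposited files are raw counts of cDNAs per position, not scaled to library size. Per the methods and the submitters' processing notes, the authors examined reads with FastQC 0.11.9, trimmed them with Cutadapt, whose version the sources used here do not give, aligned them to GRCh38 with STAR 2.7.0e, and used iCount with GENCODE 27, windows reaching 3 nt to either side, 100 permutations, up to 50 alignments and an FDR of 0.05, in each library separately. The sum of cDNAs over called positions is therefore not the sequencing depth. cDNAs were counted by their random barcodes, so that PCR copies were collapsed.

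Positions were assigned by strand to GENCODE 44, short RNAs first (with 5 nt upstream), then exons, then introns. RefSeq (GRCh38) added 103 snoRNAs and scaRNAs, matched 456 and left out 14 whose strand was not settled. That table gives no strand, so it was taken from the host gene. Copies were counted as matches of the 30 nt downstream of a position. The test of positions called in all 4 antibody libraries used edgeR 4.0.16 under R 4.3.3, with library sizes fixed to total peak cDNAs, 2 residual degrees of freedom, two-sided, Benjamini-Hochberg over all 13157, and an adjusted p under 0.05 was called. TMM, another scaling, DESeq2 1.42.0, filters and left-out libraries were alternatives. In an exact test, 2 libraries against 2 allow no p below 0.333. Boxes were searched on the sense strand of the annotated RNA, the H box from 38% to 60% of its length.

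Named genes were, by number of shared positions, the first 10 H/ACA snoRNAs, 6 scaRNAs, 4 C/D snoRNAs, 4 lncRNAs, 4 other non-coding and 10 protein-coding genes, and the genes of fixed lists. Named positions were the 10 of highest geometric mean CPM and the 5 called positions of highest and lowest log2 without overlap, 1 per gene. Of these, 1 H/ACA snoRNA and its position are not reported here. SNORA21, SNORA10, SNORA28, the host genes and the genes called under both scalings were named after their values were seen, as were the window upstream of the boxes and the ribosomal protein list. The rule, the members and the lists were chosen with earlier results of these data known.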

Additional observations from a re-analysis of the deposited data

How the results depend on the processing

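The sign of the ratio between dyskerin and GAR1 depended on the scaling: the median log2 over the shared positions was -1.35 with total peak cDNAs, 0.52 with TMM and 0.64 when scaled to the cDNAs at the tested positions, as the alternative scalings set most tested positions equal by construction. It lay between -1.50 and -1.25 without 1 of the antibody libraries. With the same alternatives 294 and 320 shared positions were higher in dyskerin and 5 and 5 in GAR1, in place of 76 and 996. Over all 13157 positions 1426 and 1519 were higher in dyskerin and 873 and 769 in GAR1, in place of 703 and 7772. DESeq2, with its own size factors, called 120 and 1 of 738 shared positions with an adjusted p, against 1026 and 649 of all 8820. Among positions with at least 10 cDNAs in 2 libraries these were 50 and 179 of 506 shared positions, against 620 and 5170 of all 7589. With a table of all positions called in at least 2 libraries they were 19 and 206 of 2964, against 6158 and 6079 of 271895. Leaving out 1 library gave 17 to 79 higher in dyskerin and 432 to 919 higher in GAR1, with the remaining single library assumed to vary like the other group. With the replicate number as a replicate block 98 shared positions were higher in dyskerin and 1212 in GAR1, against 810 and 8828 of all 13157. The deviations of same-numbered libraries correlated at 0.30 over 2 pairs, which does not show that the numbers pair the libraries. No position called in 1 direction with total scaling was called in the other with TMM.

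The number of shared positions fell from 2964 to 1498, 925 and 744 when IgG was excluded within 1, 3 and 5 nt, and to 1141 outside IgG clusters. It was 1296, 734 and 103 with at least 2, 3 and 10 cDNAs in each antibody library. It lay between 3005 and 7538 without 1 library. The share of cDNAs was 0.935% to 2.98% for dyskerin and 2.15% to 11.9% for GAR1 in the same way. With no IgG site within 5 nt the shares were 0.302% and 0.611%.

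Class shares, in the order H/ACA, C/D, scaRNA, protein-coding and lncRNA, were 48.2%, 29.1%, 7.99%, 4.19% and 7.66% when weighted by CPM. With no IgG site within 5 nt H/ACA snoRNAs were at 28.2%, scaRNAs at 5.91%, protein-coding genes at 13.3% and lncRNAs at 13.0%. With GENCODE alone C/D snoRNAs were at 31.3%, scaRNAs at 8.87%, protein-coding genes at 8.70% and lncRNAs at 9.08%. Positions in a single gene leave out intronic guide RNAs by construction and gave 1.13%, 2.03%, 0%, 43.3% and 43.1%. Of the alternatives added after seeing the data, levels of 2 to 20 CPM gave H/ACA snoRNAs 41.3% and protein-coding genes 5.30%, and a unique downstream sequence gave lncRNAs 4.78%. Without 1 library the ranges were 21.1% to 47.0%, 19.2% to 34.6%, 6.49% to 11.2%, 4.42% to 40.6% and 3.81% to 8.87%. Exact annotated ends moved no class share beyond its interval. In protein-coding genes, introns held 74.1% weighted by CPM and 72.7% with no IgG site within 5 nt, where coding sequence held 12.1%. In that set U was at 34.4%. Of H/ACA snoRNAs and scaRNAs together 60.9% of shared positions lay past the midpoint, 67.1% weighted by CPM and 76.8% with no IgG site within 5 nt. Counts of a few cDNAs, and IgG libraries of unequal depth, limit each of these values.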
